A study of Homo sapiens with 18 samples.

Results

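The aconitases and isocitrate dehydrogenases are the enzymes that turn citrate into isocitrate and isocitrate into 2-oxoglutarate. This account follows 7 of the 20263 genes in a human RNA sequencing count table: ACO1, IREB2, IDH1, IDH2, IDH3A, IDH3B and IDH3G. They were found by matching symbols to the table's Ensembl identifiers, and all 7 passed the filter on low counts. The set was chosen by measured values, since ACO1 and IDH1 CPM (each count set relative to its library's size) were higher in treated libraries labelled MHCC-97H. That contrast is therefore described here for all 7 without a test.

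The study holds 18 libraries in 6 groups of 3. Wild-type cells labelled MHCC-97H (liver cancer), MDA-MB-231 (breast cancer) or HCT-116 (colon cancer) were grown in high-glucose medium with serum. Treated cells were given 20 nM H3B-8800, which binds the SF3B1-containing splicing complex, and control cells the solvent DMSO, for 24 h. Separate cultures are not stated for the 3 libraries of a group, so p-values measure the spread between these libraries, which may be technical. Each label names an established cell line.

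Library totals ran from 28232315 to 41488278 counts. Libraries labelled MHCC-97H held almost no liver transcripts, with 9 liver markers summing to at most 0.244 CPM and ALB, AFP, APOA1, APOB, APOH, TTR and SERPINA1 at 0. The same markers summed to 182 to 219 CPM in libraries labelled MDA-MB-231 and to 195 to 235 CPM in those labelled HCT-116. Intestinal epithelial markers summed to 1544 to 1578 CPM in libraries labelled MDA-MB-231 and to 1554 to 1655 CPM in those labelled HCT-116. Libraries labelled MHCC-97H held 2.68 to 3.71 CPM of them. HCT-116 and MDA-MB-231 are therefore not taken to be different lines here, and all names are used as labels only. Each label was still fitted as its own groups and compared with the other. HCT-116 libraries numbered 2 stood apart from their groups in both treatments, at 58.9 and 61.8 chi-square units per gene for H3B-8800 and 40.8 and 48.5 for DMSO. All other pairs within a group lay between 21.4 and 31.2.

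Aconitase needs an iron-sulfur cluster in its active site. ACO1 encodes the cytosolic form, and when its cluster is lost the protein becomes iron regulatory protein 1, which binds iron-responsive elements in messenger RNA. IREB2 encodes iron regulatory protein 2, a close relative without aconitase activity that is degraded when iron is plentiful. IDH1, in the cytosol and peroxisomes, and IDH2, in mitochondria, oxidise isocitrate and reduce NADP to NADPH. IDH3A, IDH3B and IDH3G encode the catalytic alpha subunit and the beta and gamma subunits of the mitochondrial NAD-dependent enzyme of the citric acid cycle.

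The upstream sequences of ACO1, IDH1 and IDH3A are shown because the treated MHCC-97H libraries were well above DMSO for ACO1 and IDH1 and overlapped DMSO for IDH3A. They are from RefSeq on GRCh38.p14, 5′ to 3′ on the gene's strand. Each is the longest stretch before a listed start, within a 300-base window (250 bases before to 50 after it), that no annotated exon covers. A further listed IDH1 window has a piece that is not shown. Capitals mark GGGCGG or its reverse complement CCGCCC, the GC box, a motif bound by Sp-family factors. The pieces are chr9:32384393-32384602 (plus strand) for ACO1, chr2:208255134-208255246 (minus strand) for IDH1 and chr15:78149112-78149320 (plus strand) for IDH3A.
ACO1: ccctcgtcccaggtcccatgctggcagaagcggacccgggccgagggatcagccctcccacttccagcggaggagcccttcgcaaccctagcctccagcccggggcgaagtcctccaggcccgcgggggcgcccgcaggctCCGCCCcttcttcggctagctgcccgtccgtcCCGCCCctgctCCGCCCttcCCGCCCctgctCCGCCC
IDH1: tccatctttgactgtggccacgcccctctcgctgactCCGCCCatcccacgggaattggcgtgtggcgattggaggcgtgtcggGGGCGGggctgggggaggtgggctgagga
IDH3A: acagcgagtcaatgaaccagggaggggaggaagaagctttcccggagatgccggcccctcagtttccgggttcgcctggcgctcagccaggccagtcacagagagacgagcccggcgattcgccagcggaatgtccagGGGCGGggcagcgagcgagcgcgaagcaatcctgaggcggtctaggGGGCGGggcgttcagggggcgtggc
The ACO1 piece holds 5 GC boxes, with 6 in its whole window. The whole windows of IDH1 and IDH3A hold 3 each, and a second listed IDH1 window holds 2. The windows of IDH2, IDH3B and IDH3G hold 0, and those of IREB2 hold 2 and 0. For IREB2, IDH1, IDH2 and IDH3A the listed starts lie inside the annotated gene span, so the outer 5′ end of each was not searched. Of 35116 windows in the table, 45% hold at least 1 GC box on either strand. CCAAT, searched on both strands, occurs 2 times in the IDH1 window shown, 0 times in its other window, 0 times in those of ACO1 and IDH3A, and in 34.6% of all windows. TATAAA is in none of these 3 windows and in 11.5% of all. A match of letters is a description and says nothing of what binds there.

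Under the MHCC-97H label, the 3 cytosolic genes were higher in every H3B-8800 library than in any DMSO library, and 3 of the 4 mitochondrial genes were lower in every one. Across all 14234 tested genes, 19.6% lay wholly above and 28.0% wholly below DMSO in this comparison, and 27.6% were called (12.9% higher and 14.7% lower). Called means a Benjamini-Hochberg adjusted p under 0.05 in edgeR's quasi-likelihood test over all tested genes. Nothing is read from the counts of the 7 genes here, since this contrast chose them. Values are CPM scaled by the trimmed mean of M-values (TMM), as mean ± SD with n = 3 each, and log2 fold changes are H3B-8800 over DMSO with the standard error (SE) of the fit.

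ACO1 (ENSG00000122729, chr9:32384603-32454769, plus strand, GRCh38) had 208, 279 and 257 CPM in H3B-8800 libraries, against 131, 122 and 127 CPM in DMSO libraries. The groups did not overlap, and the treated libraries were spread more widely than the controls, at 248 ± 36.3 CPM against 127 ± 4.23 CPM. The log2 fold change was 0.97 (SE 0.08).

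IREB2 (chr15:78437431-78501456, plus strand) had 52.7, 51.4 and 49.5 CPM in H3B-8800 libraries, against 38.1, 29.9 and 31.3 CPM in DMSO libraries. All treated libraries were above all controls, with a log2 fold change of 0.63 (SE 0.17), the largest SE of the 7 genes in this comparison. ACO1 counts over IREB2 counts averaged 4.81 with H3B-8800 and 3.85 with DMSO (geometric means, n = 3 each).

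IDH1 (chr2:208236227-208266074, minus strand) had 92.2, 102 and 69.2 CPM in H3B-8800 libraries, against 40.0, 42.1 and 42.7 CPM in DMSO libraries. The DMSO libraries were close together, and treated library 3 was the lowest of its group while still above all controls. The log2 fold change was 1.08 (SE 0.10). Its exons overlap the antisense gene IDH1-AS1, which is not analysed here. The strand setting of the counting is not given in the sources used here, so reads of such a pair cannot be told apart.

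IDH2 (chr15:90083045-90102504, minus strand), the mitochondrial counterpart of IDH1, had 132, 131 and 141 CPM in H3B-8800 libraries, against 164, 170 and 154 CPM in DMSO libraries. Each treated library lay below each control, and the log2 fold change was -0.28 (SE 0.08). The number of IDH1 reads per IDH2 read was 0.701, 0.781 and 0.492 with H3B-8800, against 0.244, 0.248 and 0.276 with DMSO. The geometric means were 0.646 and 0.256. IDH2 thus had more reads than IDH1 in all 6 libraries of this label.

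The NAD-dependent enzyme's subunits gave smaller values. IDH3A (chr15:78131498-78171949, plus strand), the catalytic subunit, had 25.7, 32.5 and 34.5 CPM in H3B-8800 libraries, against 28.7, 30.3 and 31.4 CPM in DMSO libraries. The groups overlapped, with a log2 fold change of 0.04 (SE 0.15). IDH3B (chr20:2658395-2664219, minus strand) had 33.6, 31.3 and 33.3 CPM with H3B-8800, against 39.3, 36.4 and 37.4 CPM with DMSO, a log2 fold change of -0.20 (SE 0.07). IDH3G (chrX:153785766-153794523, minus strand) had 164, 169 and 172 CPM with H3B-8800, against 225, 211 and 224 CPM with DMSO, a log2 fold change of -0.39 (SE 0.08). Every treated library was below every control for the beta and gamma subunits. IDH3G shares exonic sequence with SSR4, which stood at 506 ± 9.21 CPM with H3B-8800 and 630 ± 22.04 CPM with DMSO, so reads there may be split between them. IDH3A shares exonic sequence with ACSBG1 and CIB2, whose levels did not exceed 0.413 and 3.52 CPM in any library.

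**Figure D1:**
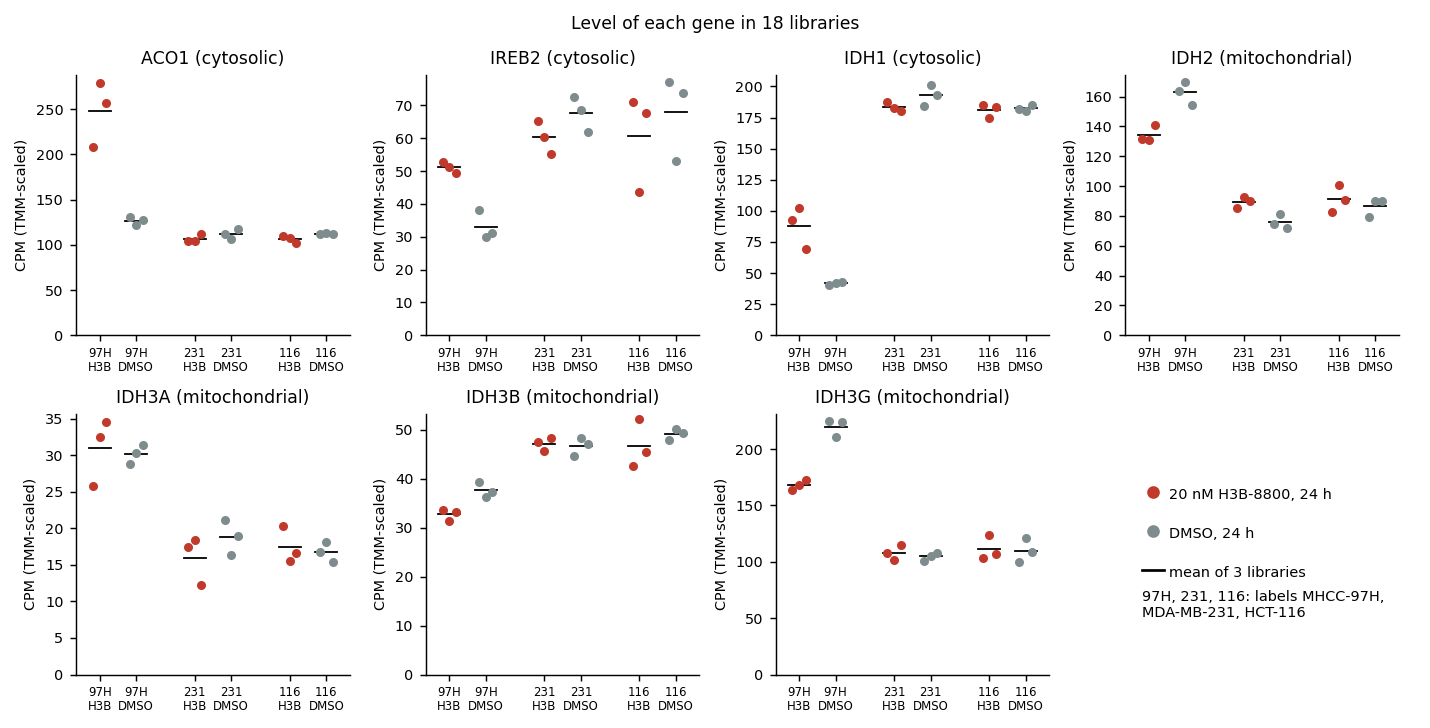
Level of the 7 genes in 18 libraries, in TMM-scaled CPM, with H3B-8800 libraries in red, DMSO libraries in grey and a line at the mean of 3. Under the MHCC-97H label, ACO1 lay at 208 to 279 CPM with H3B-8800 and at 122 to 131 CPM with DMSO, while treated and control libraries of the other labels lie close together.

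Across genes, log2 fold changes under this label varied with base composition. Over 14223 annotated genes, Spearman correlations of log2 fold change under the MHCC-97H label were -0.52 with transcript GC content and 0.36 with exonic length, as a description over genes that share libraries. IREB2, IDH1, IDH3A and ACO1 stood at the 8.77, 29.02, 31.5 and 38.99 percentiles of GC content among tested genes. IDH3B, IDH2 and IDH3G stood at the 67.4, 71.2 and 87.5 percentiles. A composition trend, in GC content and exonic length, was then fitted within each library and taken out. ACO1 then kept a log2 fold change of 0.81 and IDH1 one of 0.94. IREB2 came to 0.23, IDH2 to -0.01 and IDH3G to -0.09. IDH3A came to -0.17 and IDH3B to 0.05, both with the opposite sign to the unadjusted value. With the trend removed, ACO1 and IDH1 thus kept most of their values, IREB2 was smaller, and IDH2, IDH3B and IDH3G were close to 0. Such a fit can also take out a treatment effect that goes with GC content or length. The cause of the trend was not tested.

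**Figure D2:**
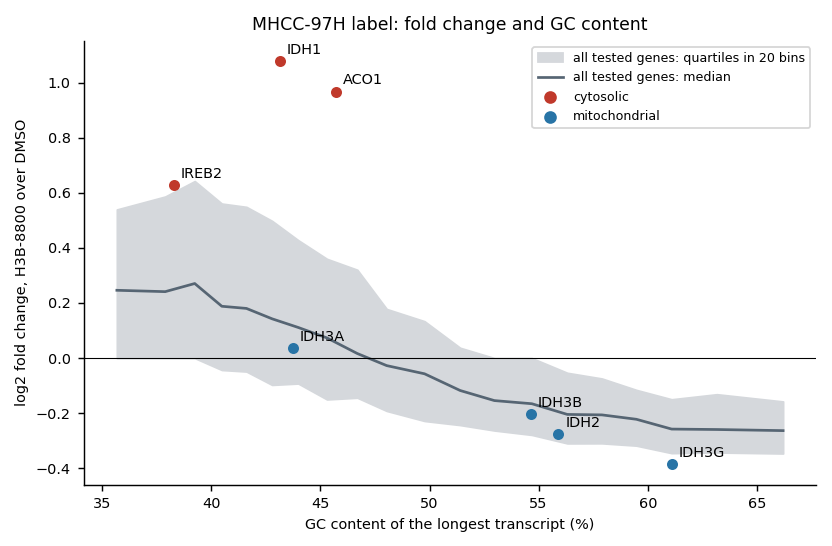
Log2 fold change of H3B-8800 over DMSO under the MHCC-97H label against the GC content of the longest transcript, with the median (line) and quartiles (band) of all tested genes in 20 bins. IDH1 and ACO1 (1.08 and 0.97) lie above the band, IREB2 (0.63) lies at its upper edge, and the mitochondrial genes lie near or below the median line.

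Scaling moved all values by a common amount. With library totals in place of TMM factors, the median over all tested genes was 0.04, against -0.06 with TMM. On library totals ACO1 came to 1.10, IREB2 to 0.76, IDH1 to 1.21 and IDH3A to 0.17, while IDH2, IDH3B and IDH3G came to -0.14, -0.07 and -0.25. The signs of the 7 genes were the same on both scales.

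The libraries of the other labels allow tests, since they played no part in choosing the genes. None of the 7 genes was called under the MDA-MB-231 label, the HCT-116 label, the mean of both or the difference between them, in edgeR or under any alternative run. Among all tested genes 0.0351% were called under the MDA-MB-231 label, 0.0351% under the HCT-116 label, 0.0422% for the mean and 0.0351% for the difference, so almost no gene passed. At an unadjusted p under 0.05 there were 1024, 655, 1081 and 588 genes, and DESeq2 called 49 under MDA-MB-231 and 22 under HCT-116.

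ACO1 had 104, 105 and 112 CPM with H3B-8800, against 112, 106 and 117 CPM with DMSO, under the MDA-MB-231 label. Under the HCT-116 label it had 110, 107 and 102 CPM with H3B-8800, against 112, 113 and 112 CPM with DMSO. The groups overlapped for MDA-MB-231, and for HCT-116 the treated libraries lay just below the controls, as did 3.29% of tested genes. Over both labels the log2 fold change was -0.07 (95% interval -0.18 to 0.04, edgeR adjusted p = 0.82).

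IDH1 had 187, 183 and 180 CPM with H3B-8800, against 185, 201 and 193 CPM with DMSO, under the MDA-MB-231 label. Under the HCT-116 label it had 185, 174 and 183 CPM with H3B-8800, against 182, 180 and 185 CPM with DMSO. Treated and control libraries overlapped under both labels. The log2 fold change over both was -0.04 (95% interval -0.18 to 0.09, edgeR adjusted p = 0.92).

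IREB2 averaged 60.4 ± 5.05 CPM with H3B-8800 and 67.8 ± 5.38 CPM with DMSO in MDA-MB-231 libraries. In HCT-116 libraries it averaged 60.8 ± 14.9 CPM with H3B-8800 and 68.0 ± 13.1 CPM with DMSO. Its wide spread under the HCT-116 label came from the libraries numbered 2, at 43.7 CPM with H3B-8800 and 53.0 CPM with DMSO, the lowest of their groups. The log2 fold change over both labels was -0.16 (95% interval -0.39 to 0.07, edgeR adjusted p = 0.79). With both of those libraries left out it was -0.14 (edgeR adjusted p = 0.57).

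IDH2 was the one gene of the set whose treated libraries lay above all controls in a label outside MHCC-97H. Under the MDA-MB-231 label it had 85.5, 92.5 and 89.8 CPM with H3B-8800, against 74.5, 81.2 and 71.8 CPM with DMSO, as did 8.67% of tested genes. The log2 fold change of 0.24 (SE 0.08) was not called (edgeR adjusted p = 0.55). Under the HCT-116 label the groups overlapped, at 91.5 ± 9.25 CPM with H3B-8800 and 86.4 ± 6.32 CPM with DMSO. Over both labels the value was 0.16 (95% interval 0.05 to 0.26), and the edgeR adjusted p of 0.5 did not pass. Across genes, log2 fold changes rose with GC content under these labels, with Spearman correlations of 0.31 (MDA-MB-231) and 0.18 (HCT-116). With the composition trend removed, IDH2 came to 0.16 under MDA-MB-231 and 0.10 over both labels (edgeR adjusted p = 0.61 for each).

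The NAD-dependent subunits overlapped between treatments under both labels. Over both, the log2 fold change was -0.09 for IDH3A (95% interval -0.30 to 0.13), -0.03 for IDH3B (-0.12 to 0.06) and 0.03 for IDH3G (-0.07 to 0.14), with edgeR adjusted p values of 0.9, 0.93 and 0.93. No difference was detectable for these subunits at this depth, where the 7 genes had 420 to 9568 counts per library.

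**Figure D3:**
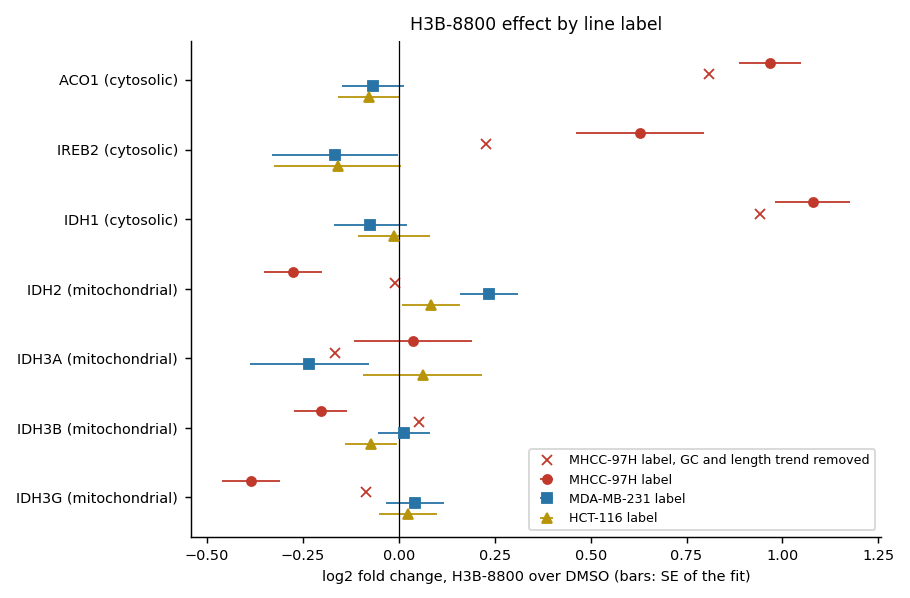
Log2 fold change of H3B-8800 over DMSO for each gene under the 3 labels, with the SE of the fit as bars and crosses for the MHCC-97H value after removal of the composition trend. Under the MHCC-97H label ACO1 stands at 0.97 and IDH1 at 1.08, and the points of the other labels lie between -0.23 and 0.24.

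The ratio of 2 genes within a library does not depend on scaling. It can still move with base composition, as IDH1 and IDH2 stood at the 29.02 and 71.2 percentiles of GC content. The ratios were not tested with the composition trend removed. Under the MDA-MB-231 label the number of IDH1 reads per IDH2 read was 2.19, 1.98 and 2.01 with H3B-8800, against 2.48, 2.48 and 2.69 with DMSO. Under the HCT-116 label it was 2.24, 1.72 and 2.02 with H3B-8800, against 2.30, 2.01 and 2.05 with DMSO. The groups did not overlap under the first of these labels and overlapped under the second. Over both labels the log2 ratio was lower with H3B-8800 by 0.20 (a difference of -0.20), with an exact two-sided stratified permutation p of 0.025 (smallest possible 0.005). Adjusted over the 2 ratios tested it was 0.05, which does not pass a threshold of under 0.05. The MDA-MB-231 label alone gave -0.31 (exact permutation p = 0.1, the smallest that 3 against 3 libraries allow) and the HCT-116 label alone -0.09 (exact permutation p = 0.5). With both HCT-116 libraries numbered 2 left out, the difference was -0.17 (exact permutation p = 0.067). Leaving out single libraries gave differences of -0.25 to -0.15 and exact permutation p values of 0.015 to 0.08.

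ACO1 reads per IREB2 read averaged 1.77 with H3B-8800 and 1.65 with DMSO for MDA-MB-231 libraries, and 1.79 with H3B-8800 and 1.67 with DMSO for HCT-116 libraries (geometric means, n = 3 each). The log2 ratio differed by 0.10 over both labels, with an exact permutation p of 0.51. With the same-numbered libraries as blocks the exact permutation p was 0.062, against a smallest possible 0.031. Without HCT-116 H3B-8800 library 2 the difference was -0.02, and with both HCT-116 libraries numbered 2 left out it was 0.07 (exact permutation p = 0.33).

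**Figure D4:**
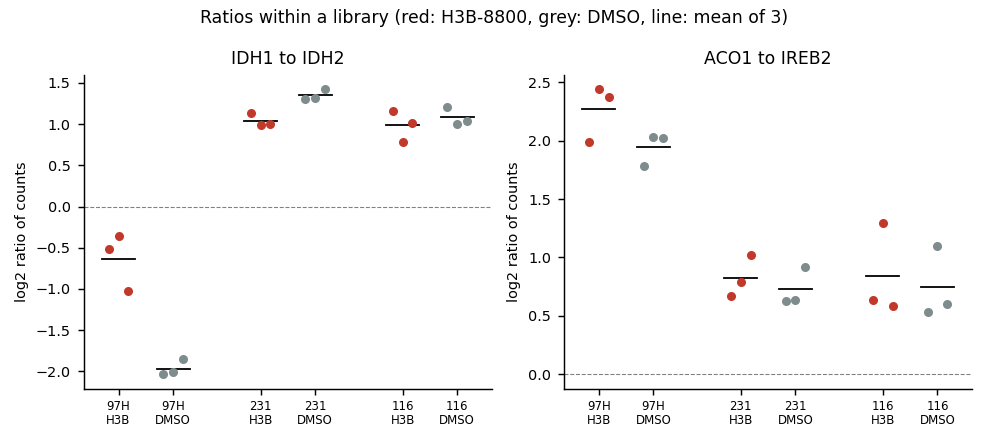
Log2 ratio of counts within each library for IDH1 to IDH2 and ACO1 to IREB2, with H3B-8800 in red, DMSO in grey and a line at the mean of 3. IDH1 to IDH2 averaged -0.63 with H3B-8800 and -1.97 with DMSO under the MHCC-97H label, and was above 0 in all 12 libraries of the other labels.

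Levels in DMSO were also compared between labels. MHCC-97H libraries with DMSO are also the controls of the contrast that chose the set, so differences of the 7 genes from them are described with no p. Set against DMSO libraries labelled MDA-MB-231, 82.7% of all tested genes were called (39.5% higher and 43.2% lower). Against DMSO libraries labelled HCT-116, 82.5% of all tested genes were called (39.5% higher and 43.0% lower). Calls of the 7 genes are not given, since the background share is itself high and the MHCC-97H values took part in the choice. Between MDA-MB-231 and HCT-116 in DMSO none of the 7 was called, where 0.0351% of all genes were (588 at an unadjusted p under 0.05).

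IDH1 averaged 41.6 ± 1.40 CPM in MHCC-97H and 193 ± 8.42 CPM in MDA-MB-231 libraries, a log2 difference of -2.21. Against the 182 ± 2.38 CPM of HCT-116 libraries it was -2.13. IREB2 was lower under the MHCC-97H label too, by log2 differences of -1.03 and -1.04, and IDH3B by -0.31 and -0.38. The mitochondrial genes IDH2 (1.10 and 0.91), IDH3A (0.68 and 0.85) and IDH3G (1.07 and 1.00) were higher, each against MDA-MB-231 and then HCT-116. With the composition trend removed, the same 2 differences were -1.74 and -1.68 for IDH1, -0.28 and -0.30 for IREB2, and -0.74 and -0.80 for IDH3B. They were 0.62 and 0.45 for IDH2, 1.33 and 1.48 for IDH3A, and 0.23 and 0.18 for IDH3G. The signs were the same, but the sizes for IREB2, IDH2, IDH3A, IDH3B and IDH3G moved by more than 1.5 times. On library totals IDH3B came to -0.59 and -0.64, and IDH3A against MDA-MB-231 to 0.40. SSR4, which overlaps IDH3G, was at 630 ± 22.04 CPM in MHCC-97H, against 68.4 ± 2.72 and 68.0 ± 4.28 CPM in MDA-MB-231 and HCT-116 DMSO libraries, and its part in the IDH3G value was not tested.

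ACO1 averaged 127 ± 4.23 CPM in MHCC-97H, against 112 ± 5.38 CPM in MDA-MB-231 and 112 ± 0.948 CPM in HCT-116 DMSO libraries. The log2 differences were 0.18 against each label. On library totals they were -0.10 and -0.08, and with the composition trend removed they were 0.83 and 0.81, so no direction is given for ACO1.

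Levels of different genes can be ordered only per length, here as CPM per kilobase of exonic sequence. That length joins all annotated exons of a gene. The transcripts expressed here were not measured, so the orders depend on the annotation. In MHCC-97H libraries with H3B-8800 the order was IDH3G (61.9), IDH2 (47.8), ACO1 (32.8), IDH1 (18.6), IDH3B (12.8), IREB2 (4.74) and IDH3A (4.53). In MHCC-97H libraries with DMSO it was IDH3G (80.9), IDH2 (57.9), ACO1 (16.8), IDH3B (14.7), IDH1 (8.81), IDH3A (4.41) and IREB2 (3.06). No neighbours in these orders overlapped over 3 libraries except IREB2 and IDH3A with H3B-8800. By this measure IDH1 and IDH3B stood in the opposite order with and without H3B-8800. In CPM, not divided by length, IDH1 was above IDH3B with H3B-8800 (87.9 against 32.7) and with DMSO (41.6 against 37.7).

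In MDA-MB-231 libraries with DMSO, the order of CPM per kilobase was IDH1 (40.9), IDH3G (38.6), IDH2 (27.0), IDH3B (18.2), ACO1 (14.8), IREB2 (6.27) and IDH3A (2.75). With H3B-8800 IDH3G (39.7) and IDH1 (38.9) changed places, but their libraries overlapped with each treatment. The remaining order was the same with H3B-8800 and under the HCT-116 label. The NADP-dependent enzyme with the higher level per kilobase was therefore the cytosolic IDH1 under these labels and the mitochondrial IDH2 under the MHCC-97H label. Among the subunits of the NAD-dependent enzyme, the gamma subunit IDH3G was highest and the catalytic IDH3A lowest in all 6 groups.

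Other genes of the pathways around these enzymes were counted from 4 lists under the MHCC-97H label. Over all tested genes 12.9% were called higher and 14.7% lower, with a median log2 fold change of -0.06. Of 14 other citric acid cycle enzymes, 1 was called higher and 4 lower, with a median of -0.10. DLD, the dihydrolipoyl dehydrogenase shared by the 2-oxoglutarate and pyruvate dehydrogenase complexes, averaged 96.0 ± 6.21 CPM with H3B-8800 and 40.6 ± 1.58 CPM with DMSO. Its log2 fold change was 1.24 (SE 0.06, edgeR adjusted p = 3.7e-08). SUCLG1, a subunit of succinyl-CoA ligase, fell by 0.28 (edgeR adjusted p = 0.0049). SDHB and SDHA, subunits of succinate dehydrogenase, fell by 0.21 and 0.22, and MDH2, the mitochondrial malate dehydrogenase, by 0.22, with edgeR adjusted p values of 0.017, 0.032 and 0.018. On library totals 2 of the 14 were called higher and none lower, and the median was 0.03. With the composition trend removed SDHB (-0.09) and MDH2 (-0.03) were not called (edgeR adjusted p = 0.17 and 0.67). Calls lower numbered 1 without MHCC-97H DMSO library 2 or 3 or H3B-8800 library 2, and 2 without H3B-8800 library 1. DLD was called under all scalings tried. SDHA has near-identical pseudogene copies, so its reads may be shared.

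Of 18 tested genes of iron homeostasis (20 in the list), 3 were called higher and 6 lower, with a median of -0.08, beside the 12.9% and 14.7% of all tested genes. NCOA4, the receptor that delivers ferritin to autophagy, rose by 0.35 (edgeR adjusted p = 0.001), at 122 ± 5.75 CPM with H3B-8800 and 95.9 ± 4.90 CPM with DMSO. CDC42BPA and EPAS1 rose by 1.14 and 0.16 (edgeR adjusted p = 0.0039 and 0.011). FTL, the ferritin light chain, fell by 0.27 (edgeR adjusted p = 0.0069). PCBP2, an iron chaperone, HMOX1, the heme oxygenase that frees iron from heme, and STEAP3, an endosomal ferrireductase, fell by 0.22, 0.25 and 0.27 (edgeR adjusted p = 0.0056, 0.0079 and 0.0099). TFRC, the transferrin receptor, whose message is held stable by the iron regulatory proteins, averaged 101 ± 19.2 CPM with H3B-8800 and 88.8 ± 3.91 CPM with DMSO. Its log2 fold change of 0.19 was not called (edgeR adjusted p = 0.39). On library totals none of the list was called lower, with the composition trend removed 2 were, and without MHCC-97H H3B-8800 library 2 it was 3. With that trend removed FTL came to 0.0046 and HMOX1 to 0.045, both uncalled and with the opposite sign, and STEAP3 to -0.04 (edgeR adjusted p = 0.77). FTL has many processed copies, so its counts are uncertain.

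Iron-sulfur cluster assembly supplies the cofactor of the aconitases. Of its 24 genes 1 was called higher and 8 lower, with a median of -0.26, where 12.9% of all tested genes were called higher and 14.7% lower. HSPA9, the mitochondrial chaperone of the pathway, rose by 0.36 (edgeR adjusted p = 0.0031), a call lost with the composition trend removed (0.09, edgeR adjusted p = 0.18). ISCU, the scaffold on which clusters form, averaged 38.8 ± 4.45 CPM with H3B-8800 and 51.5 ± 4.40 CPM with DMSO, and fell by 0.41 (edgeR adjusted p = 0.0085). IBA57, a late-acting factor for mitochondrial clusters, CIAO1, of the cytosolic targeting complex, and FDX1, a ferredoxin, fell by 0.37, 0.27 and 0.38 (edgeR adjusted p = 0.0037, 0.0046 and 0.0054). On library totals 3 of the 24 were called lower and the median was -0.13, and without MHCC-97H H3B-8800 library 2 there were 5 lower calls. ISCU and CIAO1 were not called on library totals (edgeR adjusted p = 0.054 and 0.085). With the composition trend removed the median was -0.12.

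Of 22 tested genes of NADPH production and citrate export (23 in the list), 3 were called higher and 8 lower, with a median of -0.15, against 12.9% and 14.7% over all tested genes. NNT, the mitochondrial transhydrogenase, ME1, the cytosolic malic enzyme, and ALDH1L2, the mitochondrial formyltetrahydrofolate dehydrogenase, rose by 0.37, 0.18 and 0.83 (edgeR adjusted p = 0.0049, 0.0076 and 0.009). GLUD1, glutamate dehydrogenase, fell by 0.18 (edgeR adjusted p = 0.007). SLC25A11, the 2-oxoglutarate carrier, and ME3, a mitochondrial malic enzyme, fell by 0.34 and 0.28 (edgeR adjusted p = 0.011 and 0.016). On library totals none was called lower, and with the composition trend removed 4 were. NNT (0.04), ME1 (0.02), SLC25A11 (-0.04) and ME3 (-0.03) were not called with that trend removed (edgeR adjusted p = 0.7, 0.95, 0.71 and 0.92). Lower calls numbered 3 without H3B-8800 library 1 or 2, 5 without H3B-8800 library 3 and 4 without DMSO library 2 or 3 of this label. Under the MDA-MB-231 label, the HCT-116 label and their mean, no gene of the 4 lists was called, with list medians between -0.05 and 0.06. Over all tested genes under the MHCC-97H label, 1831 were called higher and 2091 lower with TMM, and 2501 higher and 346 lower on library totals.

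**Figure D5:**
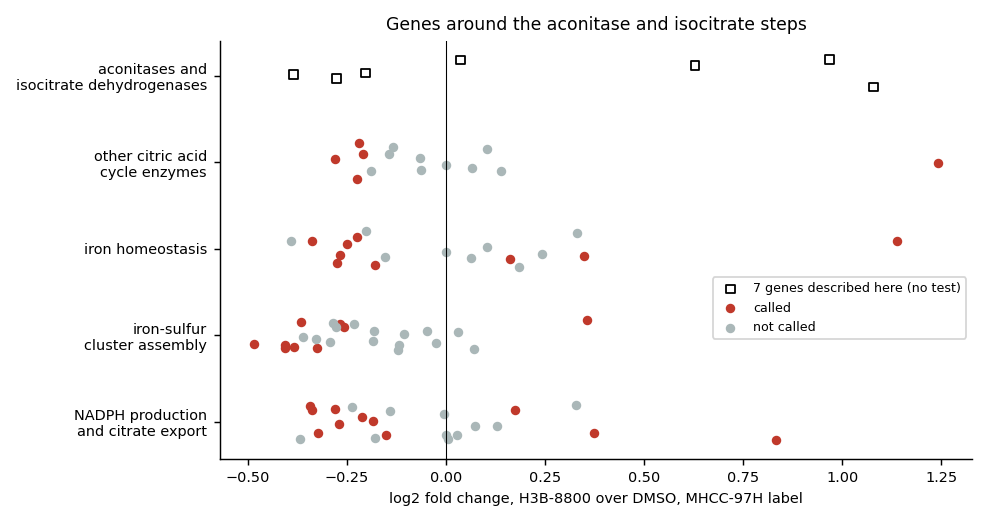
Log2 fold change of H3B-8800 over DMSO under the MHCC-97H label for the 7 genes (open squares, no test) and the tested genes of 4 lists, in red where called and grey where not. DLD (1.24) and CDC42BPA (1.14) stand apart to the right, and most called genes of the lists lie between -0.48 and -0.15.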

How the data were processed

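The authors deposited whole-number read counts per Ensembl gene for 18 libraries, not normalized. Per the submitters' processing notes, reads were handled with fastp and HISAT2 on GRCh38, but the sources used here give no version, counting tool, strand setting or annotation release. Groups came from the labels. A quasi-likelihood model (edgeR 4.0.16, R 4.3.3) took all 18 libraries in 6 groups, scaled by TMM and filtered by filterByExpr to 14234 genes. Calls used adjusted p-values (Benjamini-Hochberg) under 0.05. The fitting code was tested on simulated data. Alternatives used limma 3.58.1 and DESeq2 1.42.0, other scalings and filters, removal of a composition trend (splines of 5 degrees of freedom in GC content and exonic length for each library), a replicate block, and leaving out each library. Leaving out both HCT-116 libraries numbered 2 was chosen after seeing the data.

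GENCODE release 29 (GRCh38) gave positions, lengths and GC content for 20224 of 20263 genes, including all 7. Promoter windows came from RefSeq (GRCh38.p14), and protein sequences are not used here. The genes and lists were chosen with earlier results of these data known. The text names, from each list, up to 4 called genes in each direction in order of adjusted p, and some genes that these rules select are not reported here. Same-numbered treated and control libraries were checked for pairing by correlating their deviations from group means over 9233 genes. Under the HCT-116 label these were 0.24, 0.50 and 0.20, all above 0.1, so those numbers may mark pairs, although treated library 3 and control 1 also gave 0.24. They were -0.01, 0.12 and 0.05 for MHCC-97H and 0.14, 0.05 and 0.07 for MDA-MB-231. Counting error was not set against the spread between libraries for each gene, and intervals cover neither culture nor day.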

Additional observations from a re-analysis of the deposited data

Results flagged for a closer look

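Treated ACO1 values lay on opposite sides of their controls under 2 labels. All 3 treated libraries labelled MHCC-97H lay above their controls, with a log2 fold change of 0.97, as did 19.6% of tested genes. All 3 labelled HCT-116 lay below theirs, as did 3.29% of tested genes. The log2 fold change there was -0.078 (SE 0.080), smaller than its SE. The difference was not tested, because the MHCC-97H contrast chose the gene, and the HCT-116 value was not called (edgeR adjusted p = 1).

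IDH2 values did the same between MHCC-97H and MDA-MB-231. Its treated libraries lay below the controls under the MHCC-97H label (log2 fold change -0.28), as did 28.0% of tested genes. They lay above the controls under the MDA-MB-231 label (log2 fold change 0.24), as did 8.67% of tested genes. The MDA-MB-231 value was not called (edgeR adjusted p = 0.55), and the difference between the labels was not tested either. With the composition trend removed, the MHCC-97H value was -0.01.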

How the results depend on the processing

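No gene of the 7 was called for treatment under the MDA-MB-231 or HCT-116 labels, their mean or their difference under any of the alternatives run. Signs of values with no call turned as follows. IDH3A under MHCC-97H, 0.036 with TMM, was -0.17 with the composition trend removed, without or with the replicate block, and ranged from -0.050 to 0.15 without 1 library. On library totals IDH3B under MDA-MB-231 was -0.018. With the composition trend removed, without and with the replicate block, IDH3B was 0.052 and 0.054 (MHCC-97H) and -0.0603 and -0.0602 (MDA-MB-231). IDH3G was -0.029 and -0.030 (MDA-MB-231), -0.0138 and -0.0135 (HCT-116) and -0.0216 and -0.0216 (mean), and IDH1 under HCT-116 was 0.0035 and 0.0034. Without 1 library, MDA-MB-231 values ranged from -0.018 to 0.039 (IDH3B) and -0.0043 to 0.086 (IDH3G). HCT-116 values ranged from -0.31 to 0.023 (IREB2), -0.029 to 0.0058 (IDH1), -0.0010 to 0.15 (IDH2), -0.061 to 0.13 (IDH3A) and -0.068 to 0.098 (IDH3G). Means of both ranged from -0.076 to 0.0014 (IDH3B) and -0.011 to 0.071 (IDH3G). With both HCT-116 libraries numbered 2 left out, IDH1 under HCT-116 was 0.0030, 15 genes were called under MDA-MB-231, and the IDH1 to IDH2 difference was -0.17. ACO1 in DMSO, MHCC-97H over MDA-MB-231 and over HCT-116, was -0.10 and -0.082 on library totals.

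Genes called under MHCC-97H numbered 3922, against 2193 with the composition trend removed, 2518 with that and the replicate block, 4665 with the block alone, and 2141 to 4455 without 1 library. Under MDA-MB-231 they numbered 5, against 49 with DESeq2, 14 in the label's own fit, 8 with the composition trend removed and 4 to 8 without 1 library. Under HCT-116 they numbered 5, against 22 with DESeq2, 1 in its own fit and 3 to 15 without 1 library. The replicate block changed no call of the 7 genes.

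In the MHCC-97H lists, citric acid cycle calls were 1 lower on upper-quartile scaling, 2 higher and 0 lower on library totals, 2 higher in the label's own fit and 1 to 6 lower without 1 library. NADPH calls lower were 5 (relative log expression, upper-quartile and own fit), 0 (library totals), 4 (composition trend removed, with or without the block) and 3 to 10 without 1 library. Iron homeostasis calls lower were 0 (library totals), 2 (composition trend removed, with or without the block) and 3 to 6 without 1 library. Iron-sulfur calls lower were 3 (library totals) and 5 to 8 without 1 library, and calls higher were 0 with the composition trend removed, with or without the block. The IDH1 to IDH2 difference was -0.31 for MDA-MB-231 alone, -0.095 for HCT-116 alone, -0.20 with the replicate block (exact permutation p = 0.031) and -0.25 to -0.15 without 1 library, and ACO1 to IREB2 ranged from -0.017 to 0.19. The cause of these changes was not tested.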

Other observations

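CS, the citrate synthase that supplies the substrate of the aconitases, lay at widely separate levels within groups. It had 62.0, 171 and 58.4 CPM in MHCC-97H libraries with H3B-8800, against 157, 55.3 and 58.6 CPM with DMSO. It had 82.4, 85.4 and 106 CPM with H3B-8800, against 273, 276 and 95.9 CPM with DMSO, under the MDA-MB-231 label. Under the HCT-116 label it had 268, 105 and 85.8 CPM with H3B-8800, against 84.6, 90.9 and 99.7 CPM with DMSO. The higher level occurred in 5 of 18 libraries, in treated and control groups alike, and no H3B-8800 comparison of CS was called (edgeR adjusted p = 0.95 under MHCC-97H, 0.67 under MDA-MB-231 and 1 under HCT-116). In DMSO libraries, MHCC-97H against MDA-MB-231 gave a log2 difference of -1.25 (SE 0.55, edgeR adjusted p = 0.047), a call in which 3 of the 5 high libraries take part.

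By the likeness rule, the genes whose log2 CPM most resembled that of ACO1 over 18 libraries included MCM6 (Pearson r 0.928) and CDC16 (0.922). Over the 6 MHCC-97H libraries they were NCAPG (0.998), PTGR2 (0.995) and ZNF106 (0.994). For IDH1 they were GMFB (0.988), RPS6KC1 (0.986) and GSPT1 (0.983) over 18 libraries, and TMTC3 (0.996), BLM (0.995) and SESTD1 (0.994) over 6. These are among the highest of 9233 genes averaging at least 10 CPM, and they share libraries, so they are descriptions with no test. Among the 12 libraries of the other labels, IREB2 and IDH3G gave r = -0.86 and IDH3B and IDH3G gave r = 0.75, again with no test, and the HCT-116 libraries numbered 2 had the lowest IREB2 and the highest IDH3G of their groups.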
